A study of Rattus norvegicus with 11 samples.

Results

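Acsm5 (ENSRNOG00000031211) and Ucp3 (ENSRNOG00000017716) are 2 of the 32883 genes counted in the corpora quadrigemina of 11 male rats. They are genes of fatty acid metabolism and were chosen by the very counts analysed here, for levels that differed between the strains, so the strain levels below describe the choice and carry no test. The corpora quadrigemina are the inferior and superior colliculi of the midbrain, both included in each sample, from 4-month-old rats 4 days after exposure to sound. The KM rats had also been tested with sound at 3 months, and the “0” rats 3 times at that age. The paper records convulsions of full strength in KM rats on sound, whereas the W and “0” rats used were not prone to them. The history of sound exposure, past seizures and the strain can therefore not be told apart. KM (Krushinsky-Molodkina) rats, 3 in number, are an inbred strain derived from Wistar rats and bred for audiogenic epilepsy, in which a loud sound starts convulsions. The 4 “0” rats belong to a strain selected for the lack of such seizures among second-generation hybrids of KM and Wistar rats, with backcrosses to KM. The 4 W rats are outbred Wistar animals without audiogenic epilepsy. The labels name Wistar as the strain of all 3 groups and tell them apart by genotype. Each rat was 1 poly(A) library with 10545964 to 15140180 reads counted on genes. Of 13 marker genes of the colliculi only Lef1 and Pou4f1 could be looked up by symbol, and no marker of neurons could be, so the label of the tissue was checked on these alone. Lef1 had 6.51 to 8.75 CPM (counts scaled to library size) in KM, 8.95 to 17.6 CPM in W and 7.80 to 18.5 CPM in “0” rats, and its log2-fold change was −0.81 in KM vs “0” (unadjusted p = 0.0306 in edgeR). Pou4f1 had 0.0810, 0.169 and 1.19 CPM in KM 1, 2 and 3, against 0.848 to 2.76 CPM in W rats, and differed in KM vs W by −1.78 on the log2 scale (unadjusted p = 0.0466 in edgeR). Both markers were thus lower in KM rats in the comparison named, as Acsm5 was, and their part in its level was not tested. In bulk tissue, fewer cells of a type and less RNA per cell cannot be told apart.

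Fatty acids must be joined to coenzyme A before they can be oxidised. Acsm5 belongs to the ACSM family of mitochondrial enzymes, which carry out this step for medium-chain acids, and its relatives are best known from liver and kidney. Ucp3 encodes a carrier of the inner mitochondrial membrane related to the uncoupling protein of brown fat, is best known from skeletal muscle and brown fat, and rises there when fatty acids are burned. Many genes of fatty acid oxidation, Ucp3 among them, are known targets of the PPAR family of nuclear receptors, which bind variants of the letters AGGTCA in pairs.

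The start regions of both genes are shown because such letters can be read in them directly. They come from RefSeq (build GRCr8, + strand, 250 bases before to 50 after the start of the gene) and lie at chr1:183302259-183302558 for Acsm5 and chr1:164227660-164227959 for Ucp3. Capitals mark AGGTCA or its reverse complement TGACCT.
Acsm5: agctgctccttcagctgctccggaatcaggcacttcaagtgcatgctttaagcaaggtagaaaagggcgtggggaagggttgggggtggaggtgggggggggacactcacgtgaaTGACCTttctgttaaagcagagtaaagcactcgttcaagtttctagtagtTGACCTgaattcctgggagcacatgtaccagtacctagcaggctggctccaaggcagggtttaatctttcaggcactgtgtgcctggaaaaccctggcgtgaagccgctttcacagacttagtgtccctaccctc
Ucp3: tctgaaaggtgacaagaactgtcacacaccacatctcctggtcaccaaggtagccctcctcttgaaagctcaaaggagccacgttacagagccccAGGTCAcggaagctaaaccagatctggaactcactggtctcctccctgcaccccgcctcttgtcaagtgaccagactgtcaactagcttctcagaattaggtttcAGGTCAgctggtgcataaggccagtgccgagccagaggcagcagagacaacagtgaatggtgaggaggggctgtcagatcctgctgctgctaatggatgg
Each region held 2 matches. In Acsm5 they began 135 and 85 bases before the start and read TGACCT, and in Ucp3 they began 155 and 50 bases before it and read AGGTCA. At least 1 match, on either strand, was held by 16.2% of the 33469 rat promoters of the same length, so that such a match is common. The paired form, AGGTCA repeated in the same direction with 1 base of any kind between the copies, was searched on both strands and found in neither region and in 0.0538% of promoters. The E-box CACGTG, which reads the same on both strands, occurred once in Acsm5, beginning 143 bases before the start and outside the other matches, did not occur in Ucp3, and was held by 6.42% of promoters. The core of interferon-responsive elements, GAAA followed by 2 bases of any kind and GAAA again, searched on both strands, was in neither region and in 3.92% of promoters. These matches describe letters in a window and not sites at which a protein was measured.

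Acsm5 was lowest in KM rats, higher in 3 of the 4 W rats and highest in “0” rats. Values are given in CPM scaled with the TMM factors of edgeR. In KM rats 1, 2 and 3 Acsm5 had 2.27, 1.27 and 3.15 CPM, from 28, 15 and 53 counts. In W rats 1, 2, 3 and 4 it had 14.3, 11.1, 1.54 and 13.3 CPM, from 179, 145, 18 and 141 counts. In “0” rats 1, 2, 3 and 4 it had 16.5, 28.5, 30.9 and 37.6 CPM, from 207, 301, 280 and 578 counts. Rat W 3 thus lay among the KM rats, while the other W rats lay between the KM and “0” rats without touching either. The exact Poisson interval (95%) of W 3 ran from 0.914 to 2.44 CPM and that of the next W rat, W 2, from 9.37 to 13.1 CPM. Such intervals cover counting error only.

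The mean level of Acsm5 was 2.23 ± 0.940 CPM in KM (n = 3), 10.1 ± 5.84 CPM in W (n = 4) and 28.4 ± 8.81 CPM in “0” rats (n = 4, mean ± SD). Without W 3 the W mean was 12.9 ± 1.65 CPM (SD, n = 3). The levels of KM and W rats overlapped only through W 3. Those of KM and “0” rats did not overlap, and neither did those of W and “0” rats, where the gap from 14.3 to 16.5 CPM was narrow. In the fits of edgeR, Acsm5 was lower in KM than in W rats by a log2-fold change of −2.15 (standard error 0.67) and lower in KM than in “0” rats by −3.64 (standard error 0.38), or 12.5-fold. It was higher in “0” than in W rats by 1.49 (standard error 0.51). With each rat left out in turn the log2-fold change stayed between −2.51 and −1.88 for KM vs W, between −3.95 and −3.37 in KM vs “0” and between 1.13 and 1.70 in “0” vs W. Leaving out W 3 gave both the largest difference of KM from W rats and the smallest of “0” from W rats. Over all genes tested, the strains did not overlap, with the lower values in KM rats, for 2.33% of genes in KM vs “0”, and with the higher values in “0” rats for 2.33% of genes in “0” vs W. Nothing is read from this, since the gene was picked for these levels.

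Ucp3 was near the limit of the depth everywhere except in “0” rats and in rat W 3. In KM rats 1, 2 and 3 it had 0.324, 0.169 and 0.237 CPM, from 4, 2 and 4 counts. In W rats 1, 2, 3 and 4 it had 0.320, 0, 1.20 and 0.0942 CPM, from 4, 0, 14 and 1 counts. In “0” rats 1, 2, 3 and 4 it had 1.67, 1.99, 1.76 and 1.76 CPM, from 21, 21, 16 and 27 counts. The “0” rats lay close together and above every other rat, and W 3 stood between them and the remaining W rats. The smallest amount taken as shown by the depth, 3 counts, was 0.178 to 0.331 CPM depending on the rat, so the KM rats and the 3 other W rats lay at or under this floor or 1 count above it. By this floor the 0 counts of W 2 allow up to 0.230 CPM, and the two-sided exact Poisson interval for the same rat ends at 0.282 CPM.

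The mean level of Ucp3 was 0.244 ± 0.0777 CPM in KM (n = 3), 0.404 ± 0.548 CPM in W (n = 4) and 1.80 ± 0.137 CPM in “0” rats (n = 4, mean ± SD). Without W 3 the W mean was 0.138 ± 0.165 CPM (SD, n = 3), which turns the order of the KM and W means. The “0” rats did not overlap with either group, and the KM rats lay within the range of the W rats. The counts of each strain were pooled, 10 in KM, 19 in W and 85 in “0” rats, and set against the scaled depth. The level in “0” rats was 7.33 times that in KM rats (exact interval 3.80 to 15.8) and 4.50 times that in W rats (2.71 to 7.84). The level in W rats was 1.63 times that in KM rats (0.721 to 3.92), and 14 of the 19 W counts came from W 3. These intervals cover counting error only and not the spread between rats. In the fits Ucp3 was lower in KM than in “0” rats by a log2-fold change of −2.82 (standard error 0.39) and higher in “0” than in W rats by 2.13 (standard error 0.71), or 3.60 without W 3. Ucp3 passed the minimum mean of 1 CPM in these 2 fits only through the “0” rats. It did not pass it in KM vs W, for which no log2-fold change is given, nor in 2 of the 7 fits of KM vs “0” and 3 of the 8 fits of “0” vs W that left out 1 rat.

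**Figure D1:**
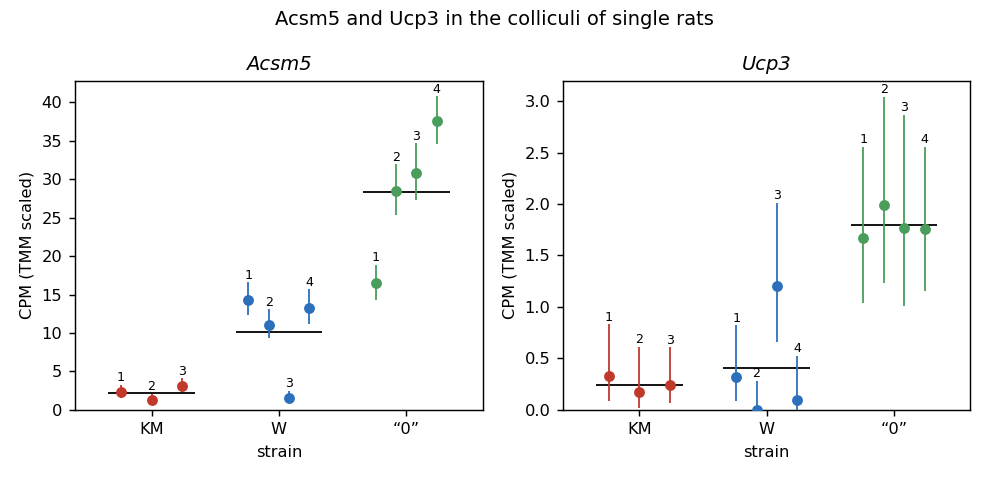
Level of Acsm5 (left) and Ucp3 (right) in CPM on a linear axis from 0, for each rat (point, with its number) in KM, W and “0” rats; thin bars are exact Poisson 95% intervals for counting error, black lines are strain means. Acsm5 of W 3 sits at 1.54 CPM among the KM rats, whereas Ucp3 of W 3 sits at 1.20 CPM, above all KM and other W rats.

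Both genes shared the high level in “0” rats and the low level in KM rats, and parted in W rats. The 3 W rats with a high Acsm5 level had Ucp3 at 0 to 0.320 CPM, and W 3, with a low Acsm5 level, had the only raised Ucp3 level among W rats. Within strains the genes were compared by the deviation of log2 CPM (prior count 2) from the strain mean. The genes were chosen on these same values, so the relation is given as a description with no p. Over the 11 rats Pearson's r was −0.687 and Spearman's rho was −0.227. Without W 3 and “0” 1, the rats farthest from the median of the Acsm5 deviations, r was 0.407 and rho was 0.533. The negative value rested on W 3, without which r was 0.364. The KM rats and the W rats other than W 3 had 0 to 4 counts of Ucp3 each, so their Ucp3 deviations rest on a few reads.

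**Figure D2:**
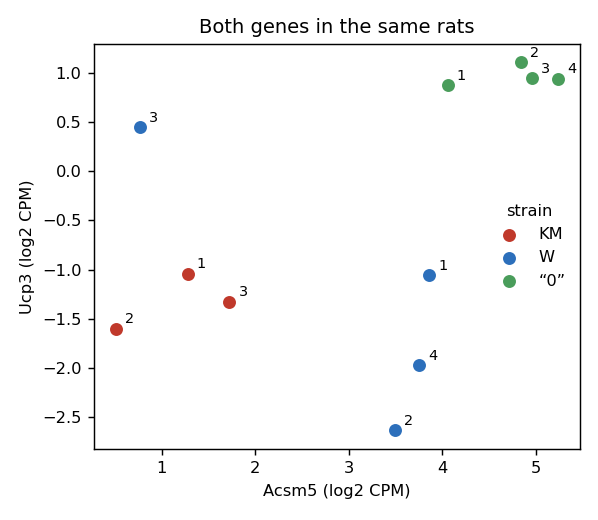
Log2 CPM of Ucp3 against log2 CPM of Acsm5 in the 11 rats, coloured by strain and labelled with the number of the rat. The “0” rats lie at the upper right, the KM rats at the lower left, and W 3 at the upper left away from the other W rats at the lower right.

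Rat W 3 was set beside the other W rats over the 13694 genes with a mean of at least 1 CPM in the 11 rats, a minimum that Ucp3 itself did not reach. Its Acsm5 level lay 2.72 log2 units below the lowest of the other W rats, and 13 genes, Acsm5 included, lay at least as far below. Its Ucp3 level lay 1.50 log2 units above the highest of them, and 10 genes lay as far above. Over all these genes, 1.18% in W 3 lay more than 1 log2 unit outside the range of the other W rats, against 0.168% in W 1, 0.781% in W 2 and 4.02% in W 4. W 3 was therefore not the W rat that differed in most genes. The 6 genes of the choroid plexus that could be looked up, of 10, summed to 67.9 CPM in W 3 and to 6992 CPM in KM 3, where transthyretin (Ttr), their most abundant gene, had 6451 CPM. The sum was 29.3, 23.3 and 27.0 CPM in W 1, W 2 and W 4, and 30.9 and 66.3 CPM in KM 1 and KM 2, so that W 3 stood above the other W rats and KM 3 above all. In W 3 this came from Ttr, which had 44.3 CPM against 2.40 to 5.66 CPM in the other W rats. The other 5 genes summed to 23.6 CPM in W 3, within the 17.6 to 26.9 CPM of the other W rats. Of 11 skeletal muscle genes only the actin gene Acta1 could be looked up, with 3.74 to 10.7 CPM per rat and 10.3 CPM in W 3, and no gene of the lists for fat, liver and kidney could be. Haemoglobin and other erythrocyte genes, 4 of 11 with a symbol and led by Hba-a2, differed between strains. They summed to 1095 to 2015 CPM in KM, 809 to 1320 CPM in “0” and 1749 to 4825 CPM in W rats, with 1749 CPM in W 3. In “0” vs W 4 of 4 were lower in “0” rats at unadjusted p under 0.05 in edgeR, against 24.9% of genes with a symbol. In KM vs W 2 of 4 were lower in KM rats, against 78.6%. In KM vs “0” 2 of 3 were higher in KM rats, against 25.8%. The part of these tissues in the levels of both genes was not tested.

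The other genes of fatty acid metabolism were taken from lists of 141 symbols, 22 of which have an identifier here. Identifiers carry a symbol mostly because the gene was listed as differing between strains, so counts over these genes are raised by that choice. In KM vs W, 17 of the 22 had an unadjusted p under 0.05 in the quasi-likelihood test of edgeR, 7 higher and 10 lower in KM rats, against 10.9% of all 13721 genes tested and 78.6% of the genes with a symbol. In KM vs “0” there were 5, 2 higher and 3 lower in KM rats, against 3.65% of all genes and 25.8% of those with a symbol. In “0” vs W there were 3, all higher in “0” rats, against 6.69% and 24.9%. The first 2 counts were near the share of all genes with a symbol and the third was below it. With Benjamini-Hochberg adjustment, which 0.0656%, 0.0146% and 0.110% of all genes passed at 0.05 in the same 3 comparisons, 0 genes of the lists did so in edgeR, and their smallest adjusted p values were 0.287, 0.834 and 0.326. DESeq2's Wald test gave 1 (Elovl7), 0 and 1 (Abcd3). The unadjusted counts depended on single rats. In KM vs W the count was 8 without KM 2 and 10 without W 3, while all genes called went from 1497 to 1060 and 1218. In KM vs “0” it was 1 without KM 2, 2 without KM 1 or “0” 3, and 3 without KM 3. All genes called in KM vs “0” went from 500 to 393 without KM 2, 295 without KM 1, 280 without “0” 3 and 921 without KM 3. The median log2-fold change of the 22 genes was −0.30 for KM vs W, −0.11 for KM vs “0” and 0.05 for “0” vs W, with 0.01, 0.01 and −0.01 over all genes tested.

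Among the activating enzymes, the long-chain synthetase Acsl1 was higher in KM than in W rats by 0.41 on the log2 scale (standard error 0.12), with 74.2 ± 5.37 CPM (SD, n = 3) and 56.0 ± 5.06 CPM (SD, n = 4). The brain synthetase Acsbg1 was lower by −0.31 (standard error 0.11). Slc27a1, which takes up and activates long-chain fatty acids, was lower in KM than in “0” rats by −0.45 (standard error 0.19) and higher in “0” than in W rats by 0.44 (standard error 0.16), and its log2-fold change was 0.00 in KM vs W. Of the 4 uncoupling protein symbols only Slc25a14, a relative of Ucp3 expressed in brain, has an identifier. It was lower in KM than in “0” rats by −0.44 (standard error 0.19) and lower than in W rats by −0.32 (standard error 0.11). The ACSM relatives of Acsm5, and Ucp1 and Ucp2, could not be looked up. In RefSeq order Acsm2, Acsm1, Acsm4 and Acsm3 lie 1, 3, 4 and 8 genes after Acsm5, and Ucp2 lies directly after Ucp3. Reads that fit several copies could therefore not be traced, and the Acsm5 counts are uncertain to that extent.

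Of the 3 genes of mitochondrial beta-oxidation with an identifier, those with an unadjusted p under 0.05 were 2 for KM vs W, Acadm higher and Decr1 lower in KM rats, 0 for KM vs “0” and 1 for “0” vs W, against 78.6%, 25.8% and 24.9% of the genes with a symbol. Acadm, which starts the oxidation of medium-chain acids, was higher in KM than in W rats by a log2-fold change of 0.41 (standard error 0.13) and higher in “0” than in W rats by 0.30 (standard error 0.13). Abcd3, a peroxisomal importer of fatty acids, was also higher in both strains than in W rats, by 0.32 (standard error 0.095) in KM and 0.39 (standard error 0.10) in “0” rats. The thioesterase Acot11, which splits acyl-CoA and so undoes the activation, had 15.2 ± 1.91 CPM in KM (n = 3), 22.9 ± 5.25 CPM in W (n = 4) and 26.7 ± 9.05 CPM in “0” rats (n = 4, mean ± SD). The log2-fold change of Acot11 was −0.59 (standard error 0.20) in KM vs W and −0.81 (standard error 0.28) in KM vs “0”, and its levels in KM rats, 13.4 to 17.2 CPM, overlapped with those of “0” rats, 15.5 to 37.6 CPM. Among genes linked to nuclear receptors, Angptl4, a PPAR target that inhibits lipoprotein lipase, was lower in KM than in W rats by −0.48 (standard error 0.17), and the oestrogen-related receptor gene Esrra was higher in KM than in “0” rats by 0.32 (standard error 0.14). The elongase Elovl7, which lengthens fatty acids, had the highest log2-fold change in KM rats among the 22 genes, 1.02 (standard error 0.23) in KM vs W and 0.84 (standard error 0.21) in KM vs “0”. Markers of other cell types moved alongside some of these genes. The endothelial genes Flt1 and Tek, the 2 of 6 with a symbol, were higher than in W rats in KM (0.36 and 0.51 on the log2 scale) and in “0” rats (0.34 and 0.41), as Abcd3 was. Of the 4 genes of pericytes and smooth muscle with a symbol, of 7, Kcnj8 and Abcc9 were also higher in KM (0.43 and 0.34) and “0” rats (0.72 and 0.53) than in W. Rgs5 was at 0.37 and 0.27, and Acta2 was lower in KM rats than in W (−0.70) and “0” rats (−0.55). The microglial gene Tmem119, 1 of 6, was higher in KM than in W rats (0.49). Of the 4 astrocyte genes with a symbol, of 8, Aldh1l1 was lower in KM rats than in W (−0.46) and “0” rats (−0.48), as Acot11 was, but the list did not move as one. In KM vs W Gja1 was also lower (−0.46) and Gfap was higher (0.62), and in KM vs “0” S100b was higher (0.78) while Gja1 and Gfap were at 0.10 and −0.06. The part of these cells was not tested.

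**Figure D3:**
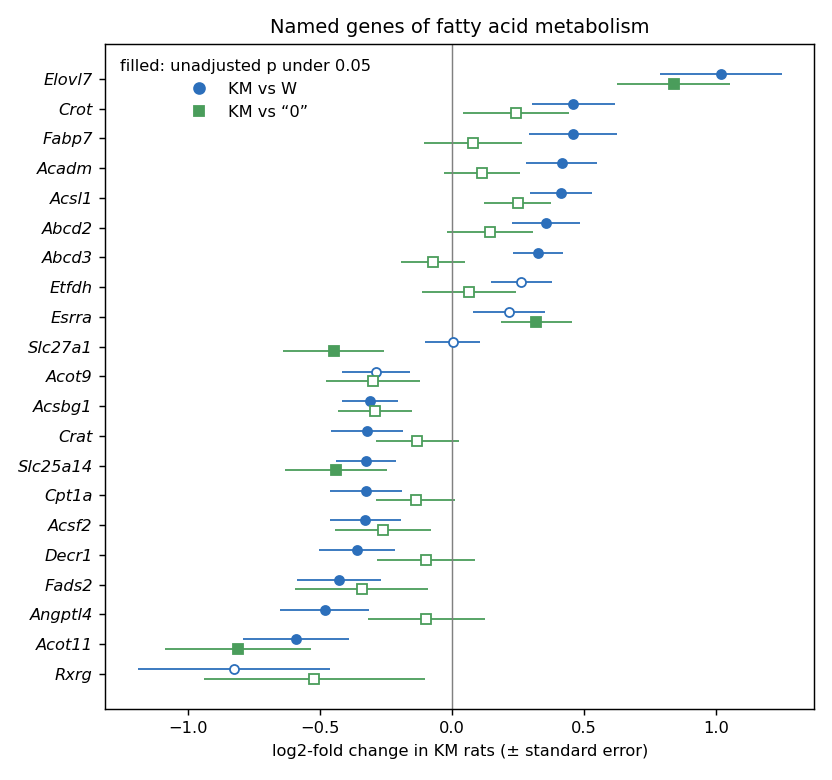
Log2-fold change with its standard error for named genes of fatty acid metabolism in KM vs W (circles) and KM vs “0” (squares); filled symbols have an unadjusted p under 0.05 in edgeR, and values right of 0 are higher in KM rats. Elovl7 lies farthest to the right, at 1.02 in KM vs W, and Acot11 is filled on the left in both comparisons.

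Both genes lie on chromosome 1, and the rows of the count table follow the chromosome in 202 of 210 pairs of consecutive named genes (96.2%), with 445 rows between Acsm5 and Ucp3. The genes beside them were examined to see whether the neighbourhoods moved too. Among the 20 rows around Acsm5, 3 had no count, 8 could be tested in KM vs W and 2 had an unadjusted p under 0.05 in edgeR, both higher in KM rats, against 10.9% of all genes. In KM vs “0” 2 of 7 did, again higher in KM rats, against 3.65% of all genes, and in “0” vs W 0 of 7 did, against 6.69%. Of the 2 neighbours named in RefSeq order that were called in KM vs “0”, Dcun1d3 and C2cd3, 0 were called without KM 1, “0” 1 or “0” 3. The largest difference was that of Dcun1d3, a gene of the neddylation machinery, with 4.84 ± 0.554 CPM (SD, n = 3) in KM and 2.19 ± 0.297 CPM (SD, n = 4) in W rats, or 2.21-fold (adjusted p = 0.199 in edgeR). The neighbour Lyrm1 was higher in KM rats than in W rats by 0.47 on the log2 scale (standard error 0.18) and than in “0” rats by 0.60 (standard error 0.22).

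Among the 20 rows around Ucp3, 15 could be tested, and those with an unadjusted p under 0.05 were 1 for KM vs W, 1 for KM vs “0” and 4 for “0” vs W, against 10.9%, 3.65% and 6.69% of all genes. In “0” vs W 1 was higher and 3 were lower in “0” rats. C2cd3, a gene of the centriole, was lower in “0” than in W rats by −0.55 on the log2 scale, with a standard error of 0.14 and an adjusted p of 0.326 in edgeR, and higher in KM than in “0” rats by 0.45 (standard error 0.17). The row directly after Ucp3, ENSRNOG00000017854, was lower in “0” than in W rats by −0.60 (standard error 0.18). Of the rows that could be tested, none differed by more than 2.21-fold in any comparison, and in none with a mean of at least 1 CPM did W 3 lie more than 1 log2 unit outside the other W rats.

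**Figure D4:**
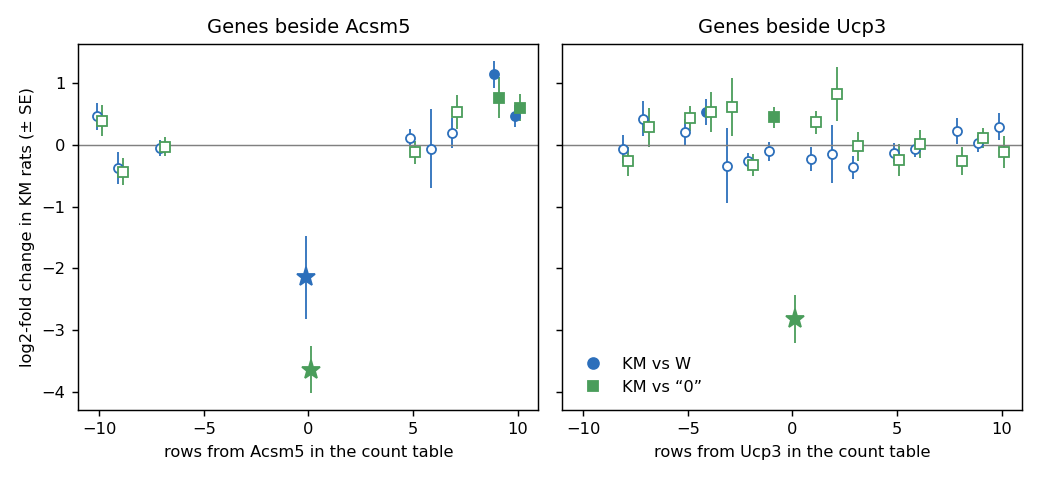
Log2-fold change with its standard error in KM vs W (circles) and KM vs “0” (squares) for the tested genes within 10 rows of Acsm5 (left) and Ucp3 (right), by distance in rows; filled symbols have an unadjusted p under 0.05 in edgeR, and stars are Acsm5 and Ucp3 themselves, shown without a test. The stars lie from −2.15 to −3.64, and the filled symbols beside them lie above 0.

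The genes most like Acsm5 in level were sought among the 1758 genes with a symbol and a mean of at least 1 CPM, by Pearson's r of log2 CPM over the 11 rats. These r values describe rats that share strains and libraries and genes already listed as differing, and have no p. The most alike was Maob (r = 0.881), the monoamine oxidase of astrocytes and serotonin neurons, with 71.1 ± 4.05 CPM in KM (n = 3), 81.3 ± 5.48 CPM in W (n = 4) and 88.2 ± 3.16 CPM in “0” rats (n = 4, mean ± SD). It was followed by the protease gene Tmprss9 (r = 0.874), LOC691921 (r = 0.853) and Fkbp10 (r = 0.846), a chaperone of collagen folding. These genes were picked by r over all 11 rats, W 3 included, so a low W 3 is in part built into the choice. W 3 had the lowest W value of all 4 genes, as it had of Acsm5. For Fkbp10 this was 14.2 CPM against 16.8 to 20.2 CPM in the other W rats, and for Tmprss9 2.06 CPM against 2.17 to 3.36 CPM. After removal of the strain means r was 0.56 for Maob and 0.862 for Fkbp10, and without W 3 it was 0.036 and 0.880. For Tmprss9 it was 0.583, and 0.788 without W 3. For LOC691921 it was 0.841, and 0.210 without W 3. Tmprss9 had 1.88 ± 0.532 CPM (SD, n = 3) in KM and 5.58 ± 1.68 CPM (SD, n = 4) in “0” rats.

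Among the genes most alike to Ucp3 were the protocadherin Pcdhga4 (r = 0.893), Osbpl9 (r = 0.873), an oxysterol-binding protein, and the secreted protease Htra1 (r = 0.870). W 3 had the highest W value in these 3 genes. Pcdhga4 had 8.23 CPM in W 3 against 5.82 to 6.97 CPM in the other W rats, and 8.71 to 9.30 CPM in “0” rats. Htra1 had 215 ± 19.1 CPM in KM (n = 3), 225 ± 28.7 CPM in W (n = 4) and 325 ± 57.5 CPM in “0” rats (n = 4, mean ± SD). After removal of the strain means r of Ucp3 with these genes was 0.56 to 0.682, and without W 3 it was 0.207 to 0.268. All 3 had their highest mean in “0” rats, as Ucp3 did, which the choice by r favours too.

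The gene most opposite to Acsm5, added after its values were seen, was Irf7 (r = −0.955), a transcription factor induced by interferon. It had 19.2 ± 5.54 CPM in KM (n = 3), 9.47 ± 5.20 CPM in W (n = 4) and 5.19 ± 0.777 CPM in “0” rats (n = 4, mean ± SD). In W 3 it had 17.0 CPM, within the range of the KM rats, against 5.13 to 8.57 CPM in the other W rats. Irf7 was picked by r over rats that include W 3, so this follows in part from the choice. After removal of the strain means r was −0.855, or −0.53 without W 3.

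**Figure D5:**
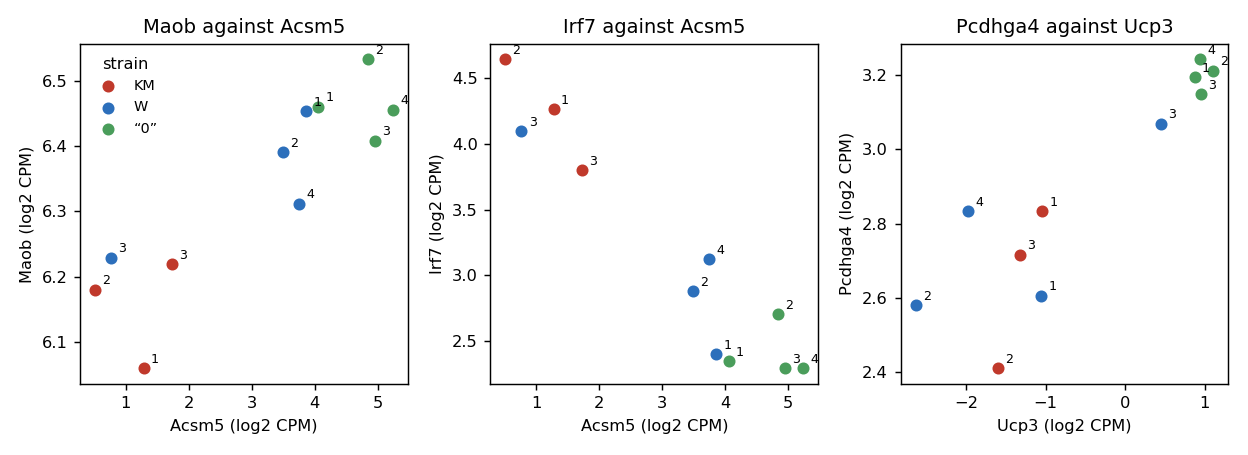
Log2 CPM in the 11 rats, coloured by strain and numbered, for Maob against Acsm5 (left), Irf7 against Acsm5 (middle) and Pcdhga4 against Ucp3 (right). W 3 lies with the KM rats in the left and middle panels and towards the “0” rats in the right panel.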

How the data were processed

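The authors deposited raw read counts per gene (HTSeq after Trimmomatic and STAR, Rnor_6.0, per the labels and methods), from 75-bp single-end reads. Whether counting used strand is not given in the sources used here. Rows that name no gene, 16.5% to 22.7% of reads on no gene among them, were left out. Strains came from sample titles.

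Each pair of strains was fitted with edgeR 4.0.16 (R 4.3.3): TMM factors, the original quasi-likelihood F-test, genes with a mean of at least 1 CPM, calls at unadjusted p under 0.05, and Benjamini-Hochberg values over all genes. In simulated KM vs W counts, 200 genes changed 4-fold among 13636 were all recovered, and 4.90% of unchanged genes passed. Every simulated gene had the same dispersion. The check therefore does not cover smaller changes, or genes as uneven between rats as Acsm5 was in W rats. DESeq2 1.42.0, other filters, a single fit, a replicate block and leaving out each rat were alternatives.

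The genes and lists were chosen with earlier results of these data known. The named genes were up to 4 per direction of the fatty acid lists by smallest p, every called neighbour, the 4 genes most like each gene, and leading markers. Lyrm1, Decr1 and ENSRNOG00000017854 were added after their values were seen. Of the genes this rule names, 2 are not reported here. Symbols came from the paper's supplementary table, which names 1763 identifiers. RefSeq (GRCr8) gave promoters and gene order only.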

Additional observations from a re-analysis of the deposited data

Results flagged for a closer look

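Dixon's test at the 95% level was applied to 46 sets of values from 4 rats, of which chance flags about 1 in 20, and 1 value stood apart. A count of 1 in 46 is no more than that rate gives. Acsm5 in rat W 3, at 0.769 log2 CPM, lay below the 3.49 to 3.86 log2 CPM of the other W rats, and the gap was 0.882 of the range. Acsm5 was chosen on these same values, so this is a description.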

How the results depend on the processing

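The direction of Acsm5 in the 3 comparisons and of Ucp3 in KM vs “0” and “0” vs W was the same in every alternative that gave a value. Both genes were chosen on these levels, so nothing is read from the unchanged direction. Ucp3 in KM vs W was not fitted, and the order of its means turned without W 3. Ucp3 was in 5 of the 7 fits of KM vs “0” and 5 of the 8 of “0” vs W that left out 1 rat. In those it ran from −3.06 to −2.65 log2 in KM vs “0” and from 1.70 to 3.60 in “0” vs W. Each of the other fits left out a “0” rat. All genes called numbered 954 to 1831 for KM vs W (lowest without W 1), 280 to 921 for KM vs “0” (lowest without “0” 3, highest without KM 3) and 612 to 1017 for “0” vs W, and with adjusted p 9, 2 and 15. In KM vs “0” there were 777 with no filter.

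With each rat left out, the fatty acid genes called ran from 8 (without KM 2) to 16 in KM vs W, where 10 were called without W 3, from 1 (without KM 2) to 6 in KM vs “0”, and from 2 to 3 in “0” vs W. With adjusted p they were 0, 0 and 0 in edgeR, and 1, 0 and 1 in DESeq2's Wald test. Of the neighbours in RefSeq order only 2 had a symbol and were tested, and 1, 2 and 1 of the 2 were called. Among genes with a symbol 78.6%, 25.8% and 24.9% were called, so nothing is read from these counts. With each rat left out the count was 1 in every fit of KM vs W and 1 to 2 in “0” vs W. In KM vs “0” it was 0 to 2 (0 without KM 1, “0” 1 or “0” 3). With adjusted p the counts were 0, 0 and 0, although DESeq2 gave Dcun1d3 in KM vs W. Rows within 10 of each gene in the count table were an alternative added after seeing the data. Of these, 3 of 23, 3 of 22 and 4 of 22 tested were called, against 10.9%, 3.65% and 6.69% of all genes.

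The relation of Acsm5 and Ucp3 within strains ran from −0.791 to 0.364 with each rat left out, turned positive without W 3 (0.364), and was 0.407 without W 3 and “0” 1.

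Rats with the same number in different strains were not paired by any label. Their deviations correlated at −0.0482 for KM vs W, 0.120 for KM vs “0” and 0.00850 for “0” vs W, with 0.0581 the lowest pair in KM vs “0”. With the replicate number as a block, 781 genes were called in KM vs “0”, the fatty acid genes called were 11 for KM vs W and 3 for KM vs “0”, 1 neighbour was called in KM vs “0”, and the relation within strains was −0.703, with rho moving from −0.227 to −0.636. Depth limits Ucp3, of which all KM rats together held 10 counts.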

Other observations

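The genes with the pattern most opposite to each gene were looked up after their values were seen, among the same 1758 genes and with no test. After Irf7, the most opposite to Acsm5 were Oas1a (r = −0.919), an antiviral enzyme induced by interferon, Stat2 (r = −0.916), which carries the interferon signal to the nucleus, and Acyp1 (r = −0.916), an acylphosphatase. Oas1a had 3.16 ± 0.808 CPM in KM (n = 3), 2.14 ± 0.780 CPM in W (n = 4) and 1.65 ± 0.234 CPM in “0” rats (n = 4, mean ± SD), and Stat2 had 54.6 ± 4.39, 44.4 ± 6.84 and 38.4 ± 3.85 CPM. In W 3 both stood above the other W rats, with 3.26 CPM against 1.44 to 1.99 CPM for Oas1a and 53.1 CPM against 37.0 to 46.0 CPM for Stat2. The choice by r over rats that include W 3 favours such values. After removal of the strain means r was −0.842 for Oas1a and −0.749 for Stat2, and without W 3 it was −0.600 and −0.502. For Acyp1 it was −0.795, and −0.842 without W 3.

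The most opposite to Ucp3 was Mterf1 (r = −0.881), a mitochondrial transcription termination factor, with 3.69 ± 0.616 CPM in KM (n = 3), 3.59 ± 0.651 CPM in W (n = 4) and 1.93 ± 0.166 CPM in “0” rats (n = 4, mean ± SD). After removal of the strain means its r was −0.51, and −0.845 without W 3. RGD1359290 followed (r = −0.859), with 8.76 ± 2.45 CPM in KM (n = 3), 10.4 ± 3.11 CPM in W (n = 4) and 0.222 ± 0.272 CPM in “0” rats (n = 4, mean ± SD), the last near the floor of 3 counts.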
